A study of Mus musculus with 10 samples.

Results

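The lipid droplet coat genes described here are the 5 perilipin genes Plin1 to Plin5, the CIDE genes Cidea and Cidec, and Bscl2 and Fitm2. They are 9 of the 55414 genes of the count tables and were chosen by name, with earlier results of these data known. Their mRNA was measured by RNAseq in interscapular brown adipose tissue (iBAT) of 5 Cre- and 5 Cre+ mice. Both genotypes carried RetSat flox/flox alleles on the C57BL/6J strain, received normal chow and were killed at an age of 12 to 14 weeks. Cre+ mice also carried Ucp1-Cre, in which the Ucp1 promoter drives Cre in brown adipocytes. The design is meant to leave RetSat in vascular, immune and other cells of the tissue, but RetSat by cell type was not measured here. Cre- mice lacked the transgene, so the effect of the deletion cannot be told apart from that of carrying Ucp1-Cre. The comparison asks whether droplet coat transcripts differ when RetSat, an oxidoreductase named for its action on retinol, is deleted in brown adipocytes.

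Brown adipocytes store triglyceride in many small droplets, and the proteins on the droplet surface decide when lipases reach the stored fat. PLIN1 is the main coat protein of fat cells and holds the lipase activator ABHD5 until protein kinase A releases it. PLIN2 covers droplets in most cell types, PLIN3 moves between cytosol and nascent droplets, PLIN4 binds droplets through a long repetitive amphipathic stretch, and PLIN5 is typical of tissues that burn fat and links droplets to mitochondria. CIDEA and CIDEC gather where droplets touch and move lipid from the smaller to the larger, and CIDEA is abundant in brown fat. BSCL2, or seipin, and FITM2 sit in the endoplasmic reticulum, where droplets form.

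RetSat itself, the check of the labels, averaged 185 ± 42.3 CPM (SD, n = 5) without and 23.9 ± 8.63 CPM (SD, n = 5) with Cre, where CPM are a gene's counts relative to the TMM-scaled library total. Total counts per mouse were 91903095 to 132499312. All 10 brown adipocyte markers were detected, and their summed level ranged over 5738 to 7863 CPM without Cre and over 5923 to 8911 CPM with it. Summed skeletal muscle markers (10 of 12 passed the filter on low counts) reached 596 CPM in replicate 2 of Cre- and 308 CPM in replicate 4 of Cre+, against 45.8 to 70.6 CPM in the other mice. Summed white adipocyte markers (7 of 8 passed the filter) reached 178 CPM in Cre+ replicate 3, against 70.5 to 111 CPM in the others. The muscle genes Ckm and Acta1 were at or near 0 in some libraries, and no marker was at 0 in all 10. In bulk tissue, fewer cells of a type and less RNA per cell cannot be told apart. The labels number the libraries of a genotype without saying outright that each is 1 mouse, as is assumed here, so p-values measure the spread between these libraries.

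Taken per kilobase of exon, the coat genes spanned a wide range and their order was nearly the same in every mouse. Cidea stood first, at 2101 ± 136 (SD, n = 5) and 2039 ± 159 CPM per kb (SD, n = 5) without and with Cre. It supplied 62.2% ± 2.53 (SD, n = 5) of the summed level of the 9 genes in Cre- and 59.8% ± 1.07 (SD, n = 5) in Cre+ mice, and it ranked 5 among all nuclear genes of Cre- iBAT on this scale. Cidec followed at 467 ± 63.5 (SD, n = 5) and 515 ± 114 CPM per kb (SD, n = 5) in Cre- and Cre+ mice, and Cidea exceeded it 3.47 to 5.54 times in the 10 mice. On this scale the CIDE pair thus made up the larger part of coat mRNA, ahead of every perilipin. The lead of Cidec over Plin1 depends on the length used. Divided by the longest coding transcript, Cidec and Plin1 had 503 and 457 CPM per kb in Cre- mice. In Cre+ mice they had 556 and 521 CPM per kb.

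Among the perilipins, Plin1 came first with 277 ± 22.0 (SD, n = 5) and 316 ± 14.9 CPM per kb (SD, n = 5), and Plin2 second with 229 ± 13.5 (SD, n = 5) and 229 ± 22.0 CPM per kb (SD, n = 5). Plin5 reached 97.3 and Plin4 87.2 CPM per kb in Cre- mice, Fitm2 50.4, Bscl2 36.9 and Plin3 34.7. Plin3, the perilipin of nascent droplets, was therefore the least abundant member, at rank 968 of the nuclear genes against rank 119 for Plin1. By annotated exons, each gene exceeded the next in the order in 10 of 10 libraries, with exceptions. Plin5 exceeded Plin4 and Bscl2 exceeded Plin3 in 9 of 10. Bscl2 depends on the length used: divided by its longest coding transcript (1962 bp) instead of all annotated exons (5897 bp) it had 111 CPM per kb in Cre- mice, above Plin5 (102) and Plin4 (96.2) on the same scale. The summed level of the 9 genes was 3380 ± 124 CPM per kb (SD, n = 5) without Cre and 3413 ± 299.9 CPM per kb (SD, n = 5) with it.

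**Figure D1:**
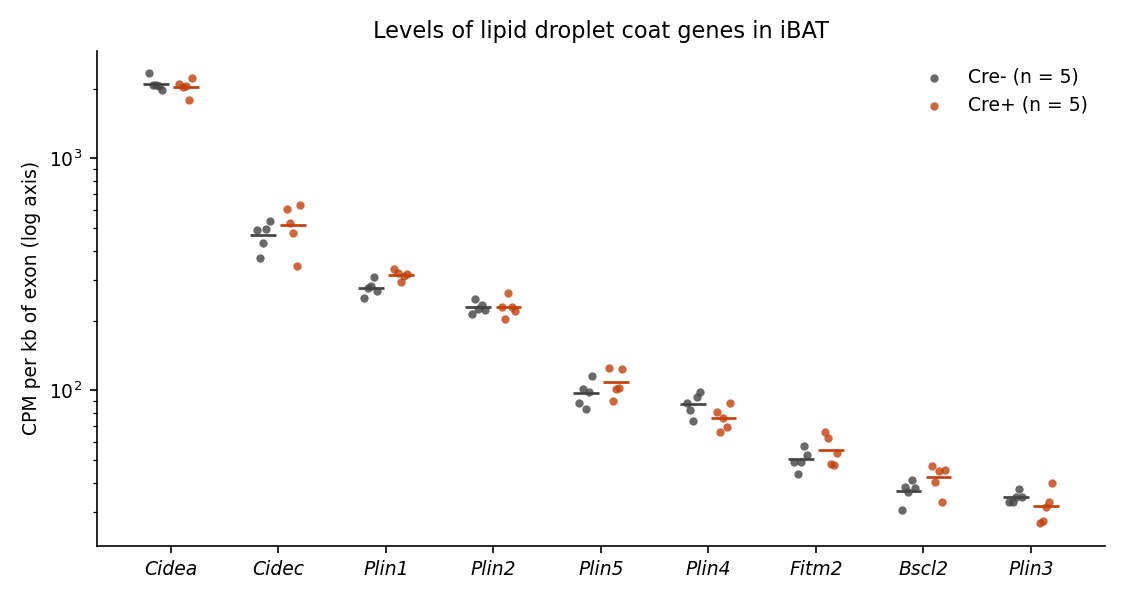
Level of each coat gene in CPM per kilobase of annotated exon, on a log axis, in Cre- (grey) and Cre+ (orange) mice. Points are single mice (n = 5 per genotype) and lines the means, and Cidea lies above Cidec by 3.47 to 5.54 times in the 10 mice while the groups overlap for every gene.

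Some members share sequence with themselves or with other genes, which bears on how their reads were counted, since a read with several alignments was not counted. The coding sequence of Plin4 (4209 bases in GENCODE M21) repeats itself with a unit of 99 bases, or 33 codons. Bases 99 apart were identical in 58.4% of positions, against a median of 27.7% at distances that are not multiples of the unit. The 3 consecutive units that are most alike are printed, so they do not stand for the likeness of units across the whole repeat. Capitals mark the bases at which the 3 units differ, and 90 of the 99 bases are the same in all of them.
Plin4 unit at coding bases 1279 to 1377: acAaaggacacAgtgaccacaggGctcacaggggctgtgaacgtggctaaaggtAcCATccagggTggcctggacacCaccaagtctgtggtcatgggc
Plin4 unit at coding bases 1378 to 1476: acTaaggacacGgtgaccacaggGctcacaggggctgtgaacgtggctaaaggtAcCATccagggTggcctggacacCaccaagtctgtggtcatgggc
Plin4 unit at coding bases 1477 to 1575: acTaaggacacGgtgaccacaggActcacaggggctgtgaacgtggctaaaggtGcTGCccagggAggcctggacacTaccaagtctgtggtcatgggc
The units at 1279 and 1378 share an unbroken run of 87 bases, longer than a read, and all 49 read-length windows of the first of them occur elsewhere in the transcript, against 8 of the 49 of the unit at 1477. Of the 5706 windows of 51 bases, the length of 1 read, in the longest coding Plin4 transcript, 977 (17.1%) occurred more than once in that transcript. How the aligner placed reads from these windows, whose mates can lie in unique sequence, was not tested. If all of them were left out, Plin4 would have 117 ± 12.9 (SD, n = 5) and 102 ± 11.9 (SD, n = 5) CPM per kb of the windows that occur once, without and with Cre. On that scale Plin5 had 105 ± 13.4 (SD, n = 5) and 117.0 ± 16.6 (SD, n = 5) CPM per kb, so the order of these neighbours depends on the length used. Plin5 lay above Plin4 in 0 of 5 Cre- and 5 of 5 Cre+ mice. This split restates the Plin5 to Plin4 ratio described below, a pair picked after the values were seen. Its exact permutation test had an adjusted p of 0.190 over 36 pairs. Among all neighbouring genes, the ratios of 2.49% of 15688 pairs did not overlap between genotypes. Of the Bscl2 windows, 28.1% occur also in AC129217.1 or Gng3, which had 0 to 1 and 28 to 72 counts per library, and Bscl2 shares 398 exonic bases with Gng3 on the opposite strand. Fitm2 shares 227 exonic bases with 2310001K24Rik (117 to 204 counts), and 4.73% of the Plin2 windows occur in Gm12551. Of the Plin1 and Plin3 windows, 0.253% and 1.22% occur in other genes. Plin4, Plin5, Cidea and Cidec had no window in any other gene.

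**Figure D2:**
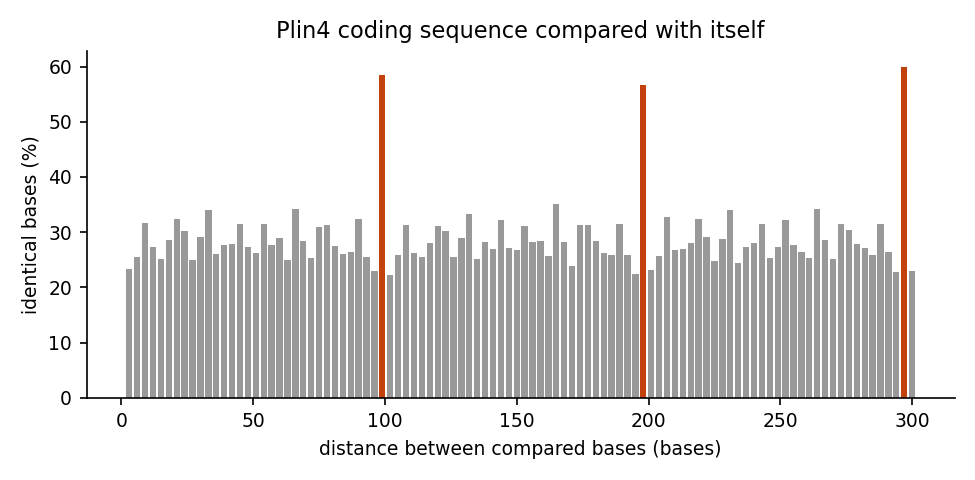
Share of identical bases when the Plin4 coding sequence is compared with itself at a given distance in bases, with multiples of 99 in orange. At 99 bases 58.4% of positions are identical, against a median of 27.7% at other distances.

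No coat gene was called higher or lower in Cre+ mice. The quasi-likelihood test of edgeR, adjusted over 17690 genes, called 0 of the 9 at an adjusted p under 0.05, against 29 genes (0.164%) in all, and DESeq2 (2.28% of genes) and limma voom (0.837%) also called 0. Without Cre+ replicate 4 (1.84% of genes called) and without both muscle-rich libraries (1.62%), edgeR again called 0 of the 9. At an unadjusted p under 0.05 edgeR gave 1 member, Plin1, against 12.3% of all genes, and limma voom gave 2, Plin1 and Bscl2, against 16.5%. The ranges of the genotypes overlapped for all 9 members, while they did not overlap for 2.67% of the genes tested. The log2 fold changes lay between -0.19 and 0.20, with 6 positive, 3 negative and a median of 0.14, beside a median of 0.00 over all genes. Every 95% interval stayed within a 1.39-fold rise and a fold of 0.758.

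**Figure D3:**
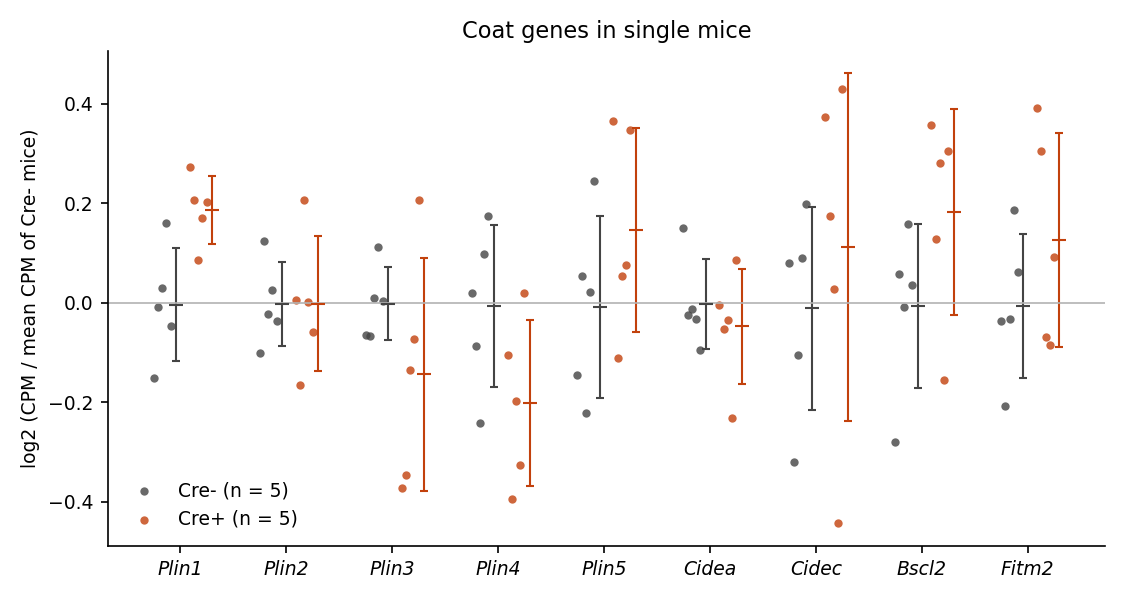
CPM of each coat gene in single mice as the log2 ratio to the mean CPM of Cre- mice. Points are mice (n = 5 per genotype), ticks with bars are the mean and SD of the log2 ratios, and Cre+ mice overlap with Cre- mice for all 9 genes.

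Plin1 (ENSMUSG00000030546.15, chr7:79369966-79382651, minus strand, GRCm39) had 1160, 1280, 1315, 1440 and 1247 CPM in Cre- replicates 1 to 5 and 1557, 1486, 1367, 1449 and 1482 CPM in Cre+ replicates 1 to 5. Of the Cre+ mice, 4 lay above every Cre- mouse, and replicate 3 lay below Cre- replicate 4. The log2 fold change was 0.19 (SE 0.07, 95% interval 0.04 to 0.34), and its adjusted p of 0.304 by edgeR was the lowest of the 9. Plin1 was also the steadiest member, with an SD within genotype of 0.094 on the log2 scale against a median of 0.235 over all genes tested.

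Plin2 (ENSMUSG00000028494.13, chr4:86566623-86588297, minus strand) had 748, 875, 789.8, 817 and 782 CPM in Cre- and 806, 715, 926, 803 and 771 CPM in Cre+ replicates 1 to 5. The Cre+ mice held both the lowest and the highest value. The log2 fold change was 0.00 (SE 0.08, 95% interval -0.16 to 0.17, adjusted p = 0.991 by edgeR), an interval of 0.894-fold to 1.12-fold. The mouse with the highest Plin2, Cre+ replicate 3, also had the lowest Plin1 of the Cre+ mice, the highest summed white adipocyte markers and the most remaining RetSat mRNA (39.0 CPM against 18.01 to 23.0 in the other Cre+ mice).

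Plin3 (ENSMUSG00000024197.11, chr17:56584476-56599873, minus strand) had 126, 125, 132.1, 142 and 131.6 CPM in Cre- and 101, 103, 119.6, 125 and 151 CPM in Cre+ replicates 1 to 5. Of the Cre+ mice, 4 lay below every Cre- mouse and replicate 5 above every one. On the log2 scale the fold change was -0.13 (SE 0.10, 95% interval -0.34 to 0.09, adjusted p = 0.634 by edgeR). It was -0.23 without Cre+ replicate 5 (adjusted p = 0.441).

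Plin4 (ENSMUSG00000002831.15, chr17:56407591-56416803, minus strand) had 562, 521, 468, 592 and 625 CPM in Cre- and 515, 421, 483, 441 and 561 CPM in Cre+ replicates 1 to 5. Low Cre+ mice reached beneath the lowest Cre- mouse, but the others lay among them. The log2 fold change, -0.19 (SE 0.10, 95% interval -0.40 to 0.01, adjusted p = 0.435 by edgeR), was the lowest of the 9.

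Plin5 (ENSMUSG00000011305.12, chr17:56418601-56424596, minus strand) had 184, 211, 174, 206 and 241 CPM in Cre- and 262, 188, 211, 214 and 258 CPM in Cre+ replicates 1 to 5. Cre+ replicates 1 and 5 were highest and the other Cre+ mice lay within the Cre- range. Its log2 fold change was 0.16 (SE 0.11, 95% interval -0.07 to 0.39, adjusted p = 0.588 by edgeR). It was -0.03 without Cre+ replicates 1, 4 and 5, the libraries whose identifiers carry an added letter.

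The CIDE genes act where droplets touch. Cidea (ENSMUSG00000024526.10) had 2600, 2305, 2324, 2292 and 2195 CPM in Cre- and 2335, 2259, 2287, 1997 and 2487 CPM in Cre+ replicates 1 to 5. Cre- replicate 1 was highest and Cre+ replicate 4 lowest, with the other mice intermixed. Its log2 fold change was -0.04 (SE 0.07, 95% interval -0.20 to 0.12, adjusted p = 0.847 by edgeR).

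Cidec (ENSMUSG00000030278.12, chr6:113401595-113412721, minus strand) had 915, 693, 805, 921 and 994 CPM in Cre- and 1121, 976, 883, 637 and 1166 CPM in Cre+ replicates 1 to 5. The lowest mouse of each genotype was the one with the highest skeletal muscle markers. Cidec was the least steady member, with an SD within genotype of 0.286 on the log2 scale. Its log2 fold change was 0.14 (SE 0.15, 95% interval -0.18 to 0.47, adjusted p = 0.741 by edgeR), and 0.19 (SE 0.10, adjusted p = 0.396) without those 2 mice. With single libraries left out it ranged from 0.06 without Cre+ replicate 5, and 0.08 without Cre- replicate 2 or Cre+ replicate 1, to 0.26 without Cre+ replicate 4 (adjusted p = 0.276). In that library the summed general adipocyte markers were also lowest, at 14250 CPM against 16190 to 19580 CPM in the others, and the part of either marker list in the Cidec values was not tested.

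Of the genes of droplet formation, Bscl2 (ENSMUSG00000071657.13, chr19:8814831-8826047, plus strand) had 179, 227, 216, 243 and 223 CPM in Cre- and 279, 238, 264, 195 and 269 CPM in Cre+ replicates 1 to 5. Cre+ replicates 1, 3 and 5 lay above every Cre- mouse, and Cre+ replicate 4, the muscle-rich library, below all but Cre- replicate 1. Bscl2 had a log2 fold change of 0.19 (SE 0.10, 95% interval -0.03 to 0.42, adjusted p = 0.469 by edgeR), and 0.27 (SE 0.09, adjusted p = 0.146) without Cre+ replicate 4. That adjusted p was the lowest of any coat gene under any alternative.

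Fitm2 (ENSMUSG00000048486.7, chr2:163308299-163314549, minus strand) had 195, 173, 196, 228 and 209 CPM in Cre- and 262, 247, 191, 189 and 213 CPM in Cre+ replicates 1 to 5. Cre+ replicates 1 and 2 were highest and the rest lay within the Cre- range. For Fitm2 the log2 fold change was 0.14 (SE 0.10, 95% interval -0.08 to 0.36, adjusted p = 0.619 by edgeR).

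Ratios within a library do not depend on the scaling of libraries, and 3 of them were planned comparisons, tested by a two-sided exact permutation test whose smallest p here is 0.00794. Each of these ratios was taken per kilobase of exon. The log2 ratio of Plin2 to Plin1, the general against the adipocyte perilipin, was -0.28 ± 0.10 (SD, n = 5) in Cre- and -0.47 ± 0.19 (SD, n = 5) in Cre+ mice (exact p = 0.0794, adjusted p = 0.238 over 3 ratios and 0.286 over all 36 pairs of members, difference -0.19). Cre+ replicates 1, 2, 4 and 5 (-0.55, -0.65, -0.45 and -0.54) lay below all Cre- mice (-0.41 to -0.14), and replicate 3, with -0.16, lay among them. Without that mouse the difference was -0.27, and without Cre+ replicates 1, 4 and 5 it was -0.13. The ratio of Plin5 to Plin1 differed by -0.04 (exact p = 0.786) and that of Cidec to Cidea by 0.17 (exact p = 0.278, adjusted p = 0.417). Cre+ replicate 4 was lowest of its genotype in the latter ratio, at -2.38.

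Plin4 and Plin5 are neighbours on chromosome 17, on the same strand and 1797 bp apart. Their levels went up and down together from mouse to mouse, with the highest correlation of any pair of members once the genotype means were taken out (r = 0.838 over 10 libraries, a description without a test). The log2 ratio of Plin5 to Plin4 per kilobase did not overlap between the genotypes. It was -0.01, 0.30, 0.18, 0.08 and 0.23 in Cre- and 0.63, 0.44, 0.41, 0.56 and 0.49 in Cre+ replicates 1 to 5, so each Cre+ mouse lay above each Cre- mouse. The means were 0.16 ± 0.12 (SD, n = 5) and 0.51 ± 0.09 (SD, n = 5). This pair was picked after the values were seen, as the 1 of 36 pairs of members whose ratio did not overlap between genotypes, with an exact p of 0.00794 by permutation, the smallest possible, and an adjusted p of 0.190 over the 36 pairs. In all, 6 of the 36 pairs had an exact p under 0.05 and 0 an adjusted p under 0.05. The pairs reuse the same genes, so the 6 are not separate results, and the share under 0.05 among other gene pairs was not computed. Among all neighbouring genes, 2.49% of 15688 pairs had ratios that did not overlap.

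**Figure D4:**
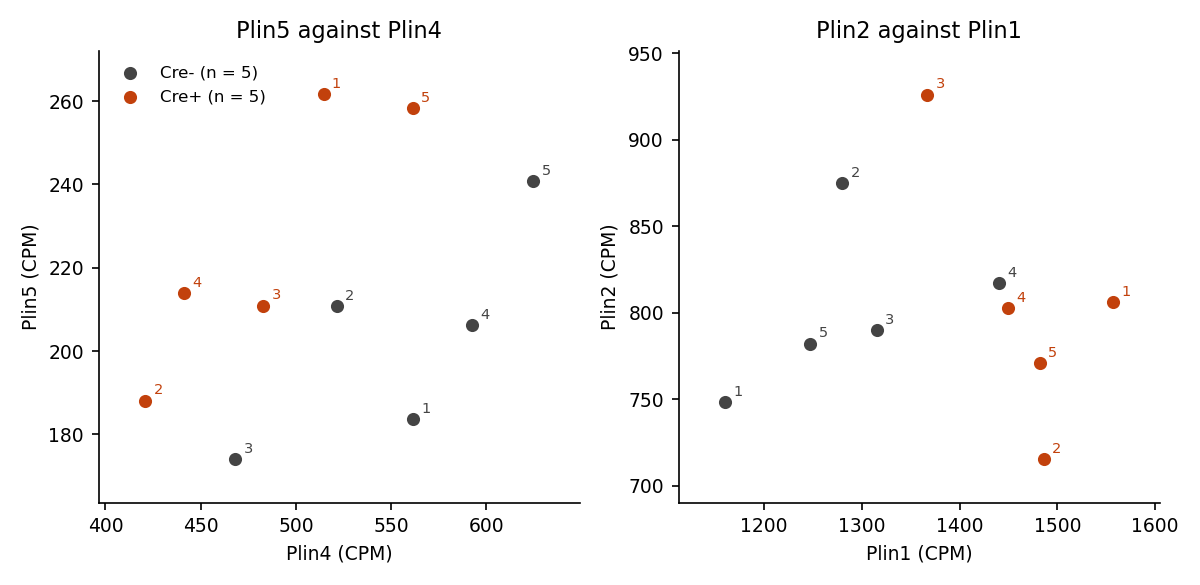
CPM of Plin5 against Plin4 (left) and of Plin2 against Plin1 (right) in each mouse, numbered by replicate (n = 5 per genotype, axes do not start at 0). In the left panel the ratio of Plin5 to Plin4 is higher in each Cre+ mouse than in each Cre- mouse, and in the right panel Cre+ replicate 3 stands apart with 926 CPM of Plin2.

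Other pairs that varied together within genotype were Cidec with Fitm2 (r = 0.712), Plin4 with Cidec (0.663) and Cidea with Cidec (0.642), and the lowest value was -0.515 for Plin2 with Fitm2. These are correlations across 10 libraries that share depth and tissue makeup, and they carry no test. The genes with the most similar profile, out of 8424 genes with a symbol and a log2 CPM averaging 3 or more, were Clstn3 (r = 0.945) and Kcnk3 (0.89) for Plin1, Idua (0.956) for Plin2, and Ddx58 (0.891) and Ppp2r1a (0.884) for Plin3. Clstn3 is also on the list of droplet proteins, for an adipocyte form that binds CIDE proteins. The nearest genes were picked as the highest r out of 8424 genes over 10 libraries, so high values come in part from the picking. Whether droplet genes are frequent among near profiles was not tested. For Plin4 they were Reep5 (0.957) and Mpnd (0.934), for Plin5 Psap (0.939) and Mrpl34 (0.928), and for Cidea Pdcd6 (0.953) and Chd9 (0.908). Cidec was nearest to Atp9b (0.984) and Cln3 (0.983), Bscl2 to Vps51 (0.98) and Acbd4 (0.966), and Fitm2 to the lactate transporter gene Slc16a1 (0.978) and Grk3 (0.975).

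The lipases and cofactors that work on the coated droplet also had no calls. Of 13 genes of droplet lipolysis, 13 were tested and 0 called, 9 had positive and 4 negative log2 fold changes, and the median was 0.08. Pnpla2, the first lipase of the pathway, was at 3535 ± 124 CPM (SD, n = 5) without Cre and at 3650 ± 207 CPM (SD, n = 5) with it. The PLIN1 partner Abhd5 had a log2 fold change of 0.25 (SE 0.15), the lipase genes Lipe and Mgll 0.11 (SE 0.09) and 0.24 (SE 0.12), and the esterase gene Ces1d -0.19 (SE 0.09). Both inhibitors of the first lipase were below 0, G0s2 with -0.35 (SE 0.26) and Hilpda with -0.38 (SE 0.14). With libraries left out, G0s2 ranged from -0.62 without Cre+ replicates 1, 4 and 5 to -0.17 without Cre+ replicate 3. Hilpda was low, at 3.84 CPM without and 2.96 CPM with Cre. It ranged from -0.43 without Cre- replicate 3 or 5 to -0.23 without the muscle-rich libraries. Hilpda had the lowest adjusted p of the list (0.317 by edgeR).

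Of 27 genes of droplet formation and other droplet proteins, 24 were tested and 0 called, 15 were positive and 9 negative, and the median log2 fold change was 0.04. Dgat1, an enzyme of the last step of triglyceride synthesis, had 0.30 (SE 0.09, adjusted p = 0.197 by edgeR), and Spast, a microtubule-severing protein with a droplet-bound form, -0.22 (SE 0.08, adjusted p = 0.273). The other named genes were the triglyceride synthesis genes Lpin1 (0.14), Agpat2 (0.22) and Gpat4 (0.16) and the droplet gene Clstn3 (0.17), with adjusted p-values of 0.552 to 0.583. Fitm1, the muscle relative of Fitm2, averaged 0.195 CPM without Cre and 0.106 CPM with it and was not tested.

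**Figure D5:**
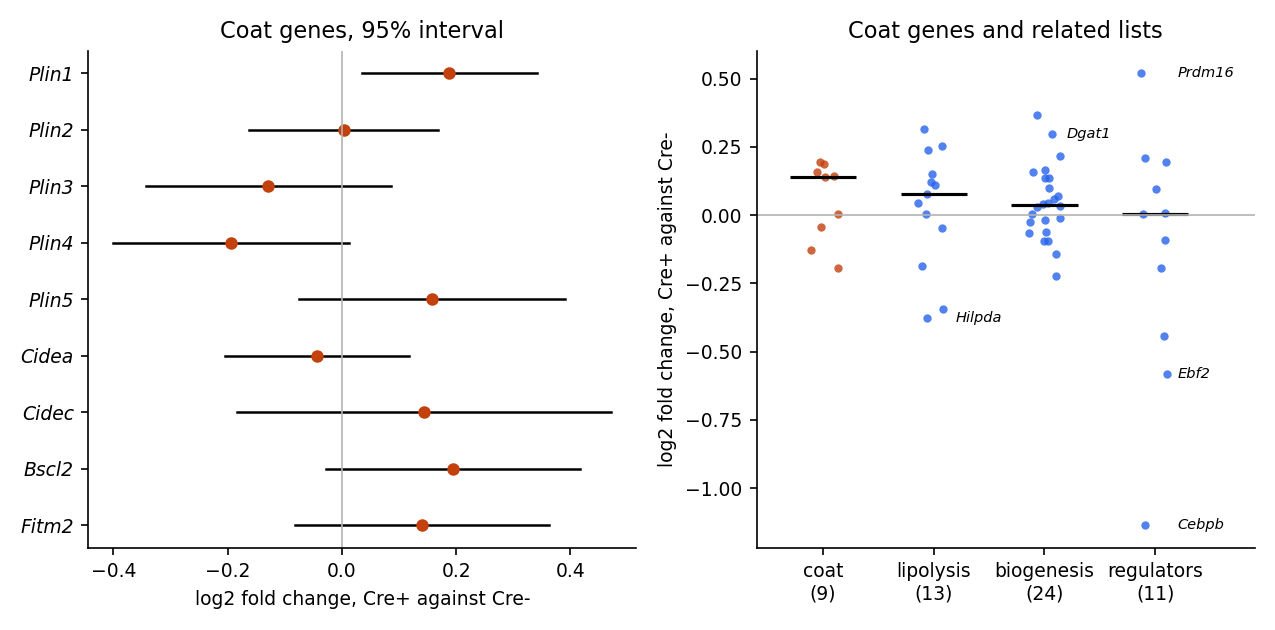
Left, log2 fold change of Cre+ against Cre- mice for each coat gene (point) with its 95% interval (line) from edgeR. Right, log2 fold changes of the coat genes and of the tested genes of 3 related lists (number in brackets), with the median as a line and Cebpb lowest at -1.14.

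Of 11 transcription factors and coactivators known to act on coat genes, 11 were tested and edgeR called 0, with 6 positive and 5 negative log2 fold changes and a median of 0.01. Pparg and Cebpa, the main adipocyte regulators, had 0.09 (SE 0.08) and 0.01 (SE 0.11). Prdm16 had 0.52 (SE 0.17), Esrra 0.21 (SE 0.08) and Rxra 0.19 (SE 0.08), with adjusted p-values from 0.249 to 0.370. Cebpb, an early regulator of adipocyte formation, had -1.14 (SE 0.19, adjusted p = 0.0535 by edgeR), and its groups did not overlap. DESeq2 and limma voom called it lower in Cre+ mice. Ebf2 and Ppara had -0.58 (SE 0.24) and -0.44 (SE 0.24), and became calls without Cre+ replicate 4, at -0.88 (adjusted p = 0.00435) and -0.73 (adjusted p = 0.0183). In that setting, as in all others, 0 coat genes were called.

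Promoters of the coat genes were searched for motifs of these regulators in RefSeq windows of GRCm38.p6 from 250 bases before to 50 after the start. Such windows were found for 8 of the 9 members, 12 in all. The C/EBP motif TTGCNNAA, read on both strands, is in 10.8% of all 32851 windows and in 2 of the 12, of Plin1 and Cidec. The nuclear receptor core AGGTCA, also on both strands, is in 16.3% of all windows and in 4 of the 12, of Plin2, Plin5 and Bscl2. The PPAR direct repeat, AGGNCA repeated after 1 base (0.381% of windows), and the ERR motif TCAAGGTCA (0.423%), which contains AGGTCA, are in 0 of the 12. A match is only a match of letters, and its absence says nothing about binding outside these windows. The 250 bases before the start are printed for 3 members whose regulators are described above, with motif matches in capitals.
Plin1 promoter, chr7:79732777-79733026, minus strand: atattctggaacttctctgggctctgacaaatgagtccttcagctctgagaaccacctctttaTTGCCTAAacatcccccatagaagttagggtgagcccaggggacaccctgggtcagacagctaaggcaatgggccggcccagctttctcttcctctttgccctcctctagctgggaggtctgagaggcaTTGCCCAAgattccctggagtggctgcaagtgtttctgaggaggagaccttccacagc
Cidec promoter, chr6:113434765-113435014, minus strand: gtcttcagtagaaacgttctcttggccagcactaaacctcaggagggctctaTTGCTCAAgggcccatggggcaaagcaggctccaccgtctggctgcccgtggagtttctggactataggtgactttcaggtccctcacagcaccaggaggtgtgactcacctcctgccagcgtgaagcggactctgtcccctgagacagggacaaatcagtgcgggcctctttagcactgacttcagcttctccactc
Plin5 promoter, chr17:56117549-56117798, minus strand: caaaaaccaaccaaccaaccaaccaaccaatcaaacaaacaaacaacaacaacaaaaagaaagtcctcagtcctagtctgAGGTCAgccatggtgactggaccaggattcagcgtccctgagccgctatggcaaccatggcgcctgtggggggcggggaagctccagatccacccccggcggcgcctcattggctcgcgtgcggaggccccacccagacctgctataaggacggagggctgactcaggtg
The log2 fold changes of these genes were 0.19 for Plin1, 0.14 for Cidec and 0.16 for Plin5, none of them called. That of Cebpb was -1.14, with an adjusted p of 0.0535 in the main edgeR fit. DESeq2, limma voom and some of the other edgeR settings called Cebpb lower.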

How the data were processed

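The libraries are RNAseq of iBAT, 5 per genotype. As the submitters' processing notes and the file headers state, the authors used Trimmomatic, STAR with GRCm39 and featureCounts 2.0.1 (Trimmomatic and STAR versions not given in the sources used here). They deposited raw counts per gene of GENCODE M28, in which mates count singly, strand is ignored and multiply aligned reads are left out. Each library holds 91903095 to 132499312 counts.

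Symbols from a table of gene identifiers matched 52081 genes (94.0%). The labels gave the genotypes. Counts were tested in R 4.3.3 by edgeR 4.0.16, with TMM scaling, filterByExpr (minimum count 10, minimum total 15) and the robust quasi-likelihood F test. P-values were adjusted by Benjamini-Hochberg over 17690 genes, and those under 0.05 were called. SE were derived from the log2 fold change and F. DESeq2 1.42.0 with default parameters and limma 3.58.1 (voom with sample quality weights) were alternatives, as were other scalings and filters, the replicate number as a block, and libraries left out. Log2 CPM for profiles had a prior count of 2. The tests were checked on simulated counts of 17690 genes, 200 of them changed. Of genes changed by 0.5 and 1 log2, edgeR recovered 34% and 85%, with 8 false calls. DESeq2 recovered 52% and 94% with 40 false calls, and limma voom 27% and 88% with 8. Changes as small as those of the coat genes were not simulated.

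The members and gene lists were chosen with earlier results of these data known. All members were named, with up to 6 genes of each related list by the smallest unadjusted p, and the 2 nearest profiles of each member, of which 1 is not reported here. Pnpla2, Pparg, Cebpa and Fitm1 were named for their role, after their values were seen. Plin4 repeats and windows were read from transcripts of GENCODE M21 (GRCm38), and promoters from RefSeq (GRCm38.p6). Levels over windows that occur once, and the ratios of all pairs of members, were added after the data were seen.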

Additional observations from a re-analysis of the deposited data

Results flagged for a closer look

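In 28 groups of 5 mice, the highest and lowest values were compared with the rest. RetSat in Cre+ replicate 3 stood apart, at 38.98 CPM against 18.01 to 23.0 CPM in the other Cre+ mice, with a gap to the next mouse of 0.762 of the range against a critical value of 0.71. Chance gives about 1 such group in 20. No coat gene had a library this far from the others of its genotype.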

How the results depend on the processing

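Each coat gene was refitted under 19 alternatives. Of the 171 values, 164 kept their direction and 0 were called, with adjusted p-values of 0.146 or more. Only Plin2 and Plin5 changed sign. Plin2 was -0.0105 by limma voom, -0.0004 without a filter, and -0.0554 to 0.043 with each library left out in turn. Plin5 was -0.0308 without the 3 lettered Cre+ libraries. The cause was not tested.

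The number of genes called in all was 29. It was 393 by DESeq2, 148 by limma voom, 92 without a filter, 289 without the 2 muscle-rich libraries, and 9 to 331 with each library left out, the highest without Cre+ replicate 4. Of the regulators, 0 were called by edgeR, but 1 by DESeq2, by limma voom, with at least 10 counts in every library and without the lettered libraries, 3 without the muscle-rich libraries, and 0 to 3 with each library left out. Cebpb was the single call in the first 4 settings. The difference in the log2 ratio of Plin2 to Plin1 was -0.27 to -0.15 with each library left out. It was lowest without Cre+ replicate 3, the Cre+ mouse whose ratio lay among those of Cre- mice. The exact p of 0.0159 in that setting follows from leaving out that mouse. The difference was -0.163 (exact p = 0.2) without the muscle-rich and -0.126 (exact p = 0.476) without the lettered libraries. The ratio of Plin5 to Plin1 differed by -0.10 to 0.04 with each library left out, above 0 without Cre- replicate 5 (0.039) or Cre+ replicate 2 (0.034).

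Deviations of same-numbered mice were weakly correlated (r from -0.195 to 0.216, 2 of 5 nearest to their own number). The labels do not say whether the numbers pair the mice, and so few libraries cannot settle it. With the replicate block, edgeR called 23 genes, with 0 coat genes and 0 regulators among them, and the paired exact p for the Plin2 to Plin1 ratio was 0.188, where the smallest possible is 0.0625.

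The widest 95% interval, that of Cidec, reached a 1.39-fold rise, and that of Plin1 1.27-fold.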
